A study of Xenopus laevis with 24 samples.

Results

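The change from early to mid neurula was measured in dorsal marginal zone (DMZ) explants of the frog *Xenopus laevis* by comparing the 4 RNA-seq libraries of stages 15 and 16 with the 4 libraries of stages 13 and 14, 8 of the 24 libraries of the series. The other libraries are DMZ explants of earlier and later stages, ventral marginal zones and animal caps. Each of the 4 stages has 2 libraries, numbered 1 and 2 in the labels. All 8 RNA samples came from DMZ explants cut at stage 10.5 from embryos grown at 16 °C and cultured in a salt solution, with 5 or 6 explants pooled per time point. No treatment or genotype is given in the labels. A stage is that of whole sibling embryos at the time of collection. Whether the 2 replicate numbers came from separate clutches is not stated, and p-values thus cover the spread between these samples, which may be technical.

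The DMZ of the gastrula holds the Spemann organizer, and an explant of it makes notochord and somite from its mesoderm and neural tissue from its ectoderm. Both tissues narrow and lengthen by convergent extension, in which cells crawl between each other along the mediolateral axis. In the whole embryo the neural plate is laid down in the early neurula and its folds rise in the mid neurula, while the notochord differentiates, the somites begin to form and the first neurons are born. *X. laevis* is allotetraploid and has kept a pair of copies, L and S (homeologs), of many genes. Reads of near-identical copies or paralogs are divided between them by estimation, so the level of a single copy is uncertain. In these bulk libraries, fewer cells of a type and less RNA per cell cannot be told apart.

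Levels are in CPM, the count of a gene model scaled to its TMM-adjusted library size, and each fold change is the log2 ratio of stages 15 and 16 over 13 and 14 ± SE. Adjusted p-values are from edgeR's quasi-likelihood test with the replicate number as a block and Benjamini-Hochberg adjustment over all tested gene models, and a gene is said to have risen or fallen where its value is under 0.05. Library values are listed in the order of stages 13, 14, 15 and 16, and a mean ± SD is over the 4 libraries of a pair of stages (n = 4), so its SD holds the change between the stages of that pair. The 8 libraries held 25971040 to 35172315 counts each. The first principal component of log2 CPM (44.8% of the variance) separated replicate 1 from replicate 2. It also fell with stage, from -29.1 to -63 in replicate 1 and from 73.9 to 24.5 in replicate 2. The second (21.8%) ordered the stages within each replicate number, from -44.3 to 32.2 in replicate 1 and from -40.8 to 48.8 in replicate 2, and on it replicate 2 of stage 14 (8.47) lay above replicate 1 of stage 15 (3.77).

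Transcripts of organizer, early mesoderm and neural genes were present in all 8 libraries. The organizer gene *chrd.L*, which encodes the BMP antagonist Chordin, was at 452, 335, 452 and 503 CPM in replicate 1 and 633, 589, 428 and 589.7 CPM in replicate 2. The Brachyury gene *t.S* of early mesoderm and notochord was at 166, 141, 87.3 and 124 CPM in replicate 1 and 190.4, 145, 114 and 105 CPM in replicate 2. The pan-neural gene *sox3.L* was at 440.5, 352, 322 and 268 CPM in replicate 1 and 492, 555, 423 and 505 CPM in replicate 2. The hatching gland genes summed to 7.29 to 57.2 CPM at stages 13 and 14 and 29.1 to 127 CPM at stages 15 and 16. Of other cell types, the heart and blood genes summed to 193 to 541 CPM at stages 13 and 14 and 243 to 360.5 CPM at stages 15 and 16. The endoderm list summed to 1517 to 1924 CPM and then 1597 to 1811 CPM. The pronephros and lateral mesoderm list summed to 1081 to 1565 CPM and then 1144 to 1247 CPM. Of their tested members, 18 of 42 and 22 of 28 are also in another list. The epidermis list summed to 13769 to 19150.4 CPM at stages 13 and 14 and 14945 to 16778 CPM at stages 15 and 16, ranges that overlap. Many of its members are keratins that simple epithelia share, and 41 of its 62 tested members are also in another list.

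Of 26493 gene models tested, 138 (0.521%) were higher at stages 15 and 16 and 217 (0.819%) were lower. Among these, the estimated fold was at least 2 for 57 that rose and 36 that fell. A test against a fold of 1.5 called 0, so these folds are estimates only. The 4 and the 4 libraries did not overlap for 244 of the 355, beside 1030 (3.89%) and 1168 (4.41%) of all tested models whose libraries did not overlap upward and downward. Called genes named below whose libraries did overlap include *insm2.L*, *id4.S*, *ctnnb1.S*, *ccne1.S*, *ccnd2.L*, *gmnn.L*, *chac1.L*, *col4a5.S*, *dchs1.S*, *irx2.S* and the *lhx5.S* model gene47466. Every one of the 355 had the same sign in both replicate numbers. A test with the replicate number as a block favours such genes, so this is a description only. The calls sat close to the threshold: leaving out stage 13 replicate 1 left 3, leaving out stage 13 replicate 2 or either stage 16 library left 0, leaving out stage 15 replicate 1 left 195 and leaving out stage 14 replicate 2 gave 1821. Without the block edgeR called 0. A fit with a separate coefficient for each of the 4 stages, which takes the change within a pair of stages out of the spread, called 1108 higher (4.18%) and 1104 lower (4.17%). All 355 are among these with the same direction. DESeq2 called 1121 higher (4.9%) and 1283 lower (5.6%), as shares of the 22897 models to which it gave an adjusted p. Of the 26493 models, 3068 (11.6%) were higher and 3171 (12%) lower at an unadjusted edgeR p under 0.05. For each gene list below, the counts of the fit with a coefficient per stage are given in brackets beside the first. The lists are not separate, and a called gene can be counted in more than 1. Tested members also in another list were 35 of 52 for midbrain and hindbrain and 42 of 44 for neural plate border and placodes. They were 33 of 65 for neural crest, 33 of 60 for notochord and 27 of 44 for organizer. For presomitic mesoderm they were 34 of 50, for keratins 11 of 15 and for cytosolic ribosomal proteins 0 of 126.

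Genes of the brain and neural plate were among the rises. *wnt1.L*, which encodes a Wnt ligand of the midbrain-hindbrain boundary and the dorsal neural tube, was at 0.318, 1.28, 3.70 and 10.9 CPM in replicate 1 and 0.0320, 0.200, 1.72 and 2.82 CPM in replicate 2. All 4 libraries of stages 15 and 16 were above all 4 of the earlier stages, and the mean went from 0.458 ± 0.561 to 4.78 ± 4.15 CPM (log2 fold change 3.53 ± 0.59, adjusted p = 0.0447). The earlier levels of *wnt1.L* were low, so the size of its fold is uncertain. Stage 16 replicate 1 was far above the other later libraries. The forebrain homeobox gene *arx.S* was at 0.731, 0.738, 1.70 and 3.91 CPM in replicate 1 and 0.224, 0.401, 1.76 and 2.89 CPM in replicate 2, again without overlap (log2 fold change 2.34 ± 0.35, adjusted p = 0.0348). Its homeolog *arx.L*, at 1.30 ± 0.514 against 4.40 ± 2.02 CPM, did not pass the test (1.78 ± 0.38, adjusted p = 0.0546 and 0.00405 with a coefficient per stage). *nr2e1.S*, the tailless nuclear receptor gene of forebrain and eye, rose from a low level, 0.405 ± 0.211 to 1.41 ± 0.587 CPM (1.83 ± 0.30, adjusted p = 0.0404).

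**Figure D1:**
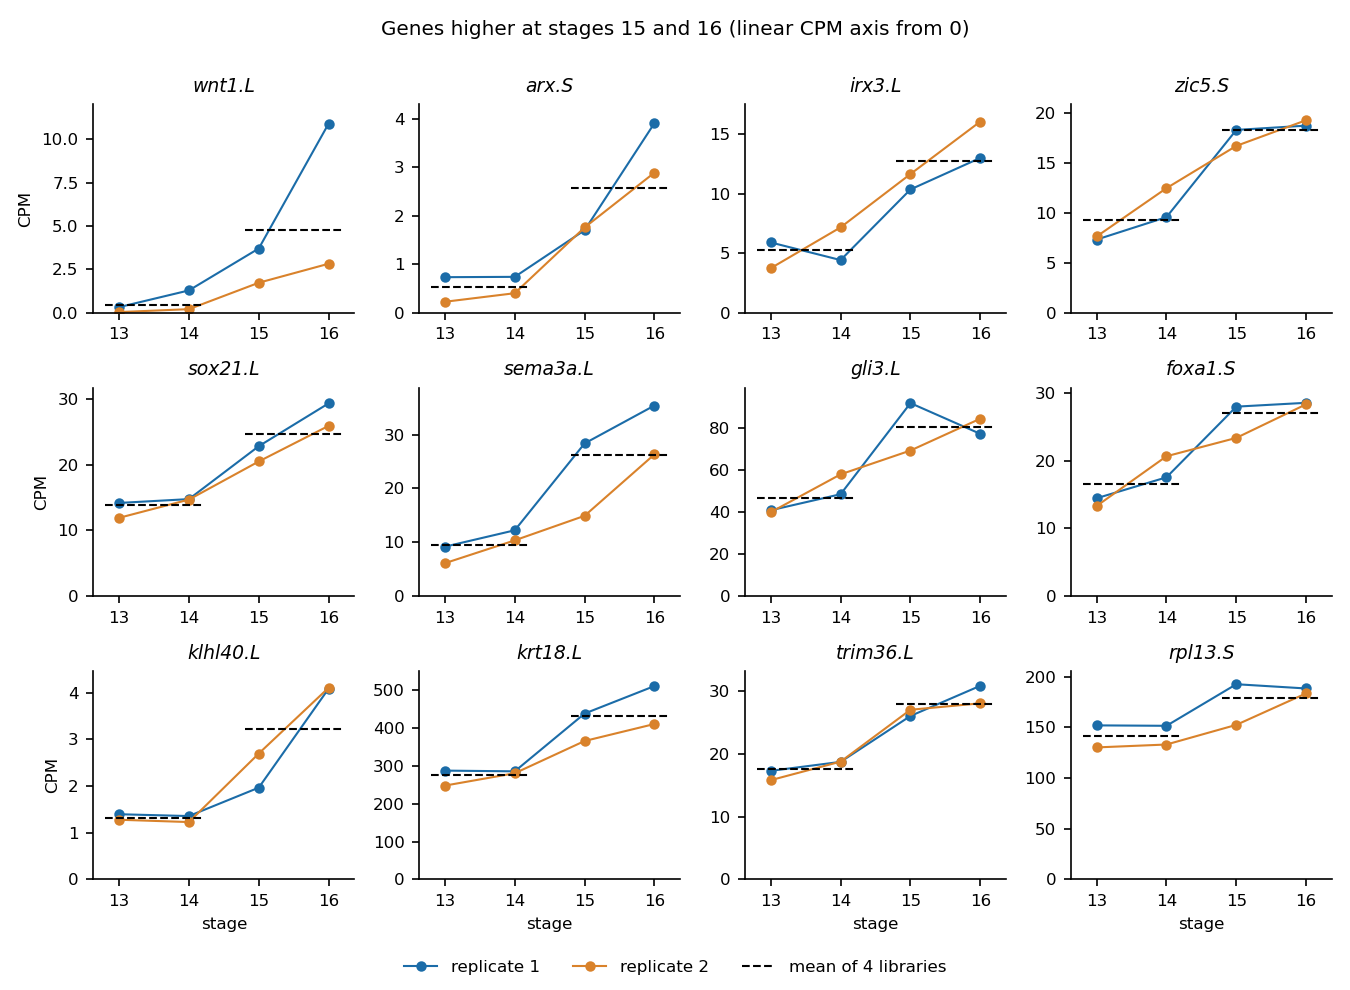
Level in CPM (linear axis from 0) of 12 genes that rose, by stage, with a line for each replicate number and a dashed line for the mean of the 4 libraries of each pair of stages. For *wnt1.L* the mean was 0.458 CPM at stages 13 and 14 and 4.78 CPM at stages 15 and 16, while the ribosomal protein gene *rpl13.S* went from 142 to 179 CPM.

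*irx3.L*, an Iroquois homeobox gene of the neural plate and hindbrain, was at 5.91, 4.43, 10.4 and 13.0 CPM in replicate 1 and 3.74, 7.18, 11.7 and 16.1 CPM in replicate 2 (log2 fold change 1.26 ± 0.21, adjusted p = 0.0404). *zic5.S*, a zinc-finger gene of the neural plate border, was at 7.31, 9.55, 18.3 and 18.7 CPM in replicate 1 and 7.61, 12.4, 16.7 and 19.2 CPM in replicate 2 (0.99 ± 0.16, adjusted p = 0.0404). Its homeolog *zic5.L* rose too, from 12.9 ± 3.47 to 24.3 ± 2.37 CPM (0.92 ± 0.18, adjusted p = 0.0457). The neural progenitor gene *sox21.L* was at 14.2, 14.8, 22.8 and 29.3 CPM in replicate 1 and 11.9, 14.7, 20.5 and 25.9 CPM in replicate 2 (0.83 ± 0.12, adjusted p = 0.0320). In none of these did the libraries of the earlier and later stages overlap. Among neuronal genes, *onecut2.L*, a homeobox gene of differentiating neurons, rose from 2.51 ± 0.897 to 5.99 ± 1.77 CPM (1.25 ± 0.25, adjusted p = 0.0457). The neuronal beta-tubulin gene *tubb2b.L* rose from 40.8 ± 7.64 to 63.8 ± 12.7 CPM (0.65 ± 0.11, adjusted p = 0.0404). The S copy *tubb2b.S* was at 3.90 ± 1.55 against 11.8 ± 5.79 CPM and did not pass the test (adjusted p = 0.0896). It passed with a coefficient per stage (adjusted p = 0.00147) and by DESeq2 (adjusted p = 0.0170). The neuronal RNA-binding protein gene *elavl3.L* was at 46.1 ± 6.49 against 41.1 ± 4.63 CPM (-0.17 ± 0.08, adjusted p = 0.258). *sema3a.L*, which encodes a secreted axon guidance cue, rose from 9.47 ± 2.57 to 26.3 ± 8.51 CPM (1.45 ± 0.23, adjusted p = 0.0404), with every later library above every earlier one.

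Other neural genes fell over the same interval, and these included the gene of smallest adjusted p among those with a symbol. *foxd4l1.1.L*, a forkhead gene that keeps early neural ectoderm in an immature state, was at 74.3, 54.7, 34.0 and 32.7 CPM in replicate 1 and 92.9, 93.0, 45.7 and 39.7 CPM in replicate 2. The mean went from 78.7 to 38.0 CPM, and no later library reached an earlier one (log2 fold change -1.04 ± 0.10, adjusted p = 0.00711). The S copy was at 73.5, 51.7, 36.9 and 35.8 CPM in replicate 1 and 113, 95.4, 49.4 and 51.7 CPM in replicate 2 (-0.92 ± 0.11, adjusted p = 0.0284). Its highest later library lay just under its lowest earlier one (both 51.7 CPM when rounded). Of 94 named genes that were called, *foxd4l1.1.L* was the 1 that stayed called without stage 13 replicate 1 (adjusted p = 0.032). *foxd3.L*, a forkhead gene of pluripotent cells and neural crest, was at 17.1, 12.3, 8.70 and 7.11 CPM in replicate 1 and 22.7, 18.2, 11.0 and 11.5 CPM in replicate 2 (-0.88 ± 0.13, adjusted p = 0.0348). Of the 2 models named *foxd3.S*, gene41506 fell from 10.4 ± 3.38 to 4.44 ± 1.62 CPM (-1.25 ± 0.18, adjusted p = 0.0320) and gene50767 was at 1.39 ± 0.554 against 0.692 ± 0.351 CPM (-1.04 ± 0.27, adjusted p = 0.0668 and 0.0362 with a coefficient per stage). *lhx5*, a LIM-homeobox gene of the anterior neural plate, has 4 tested models. Of these, the *lhx5.S* models gene50494 and gene47466 fell (-1.16 ± 0.22, adjusted p = 0.0458 and -0.99 ± 0.19, adjusted p = 0.0442). The *lhx5.S* model gene39349 and *lhx5.L* did not pass (-1.13 ± 0.27, adjusted p = 0.0752 and 0.00199 with a coefficient per stage and -0.91 ± 0.23, adjusted p = 0.0819 and 0.00693 with a coefficient per stage).

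**Figure D2:**
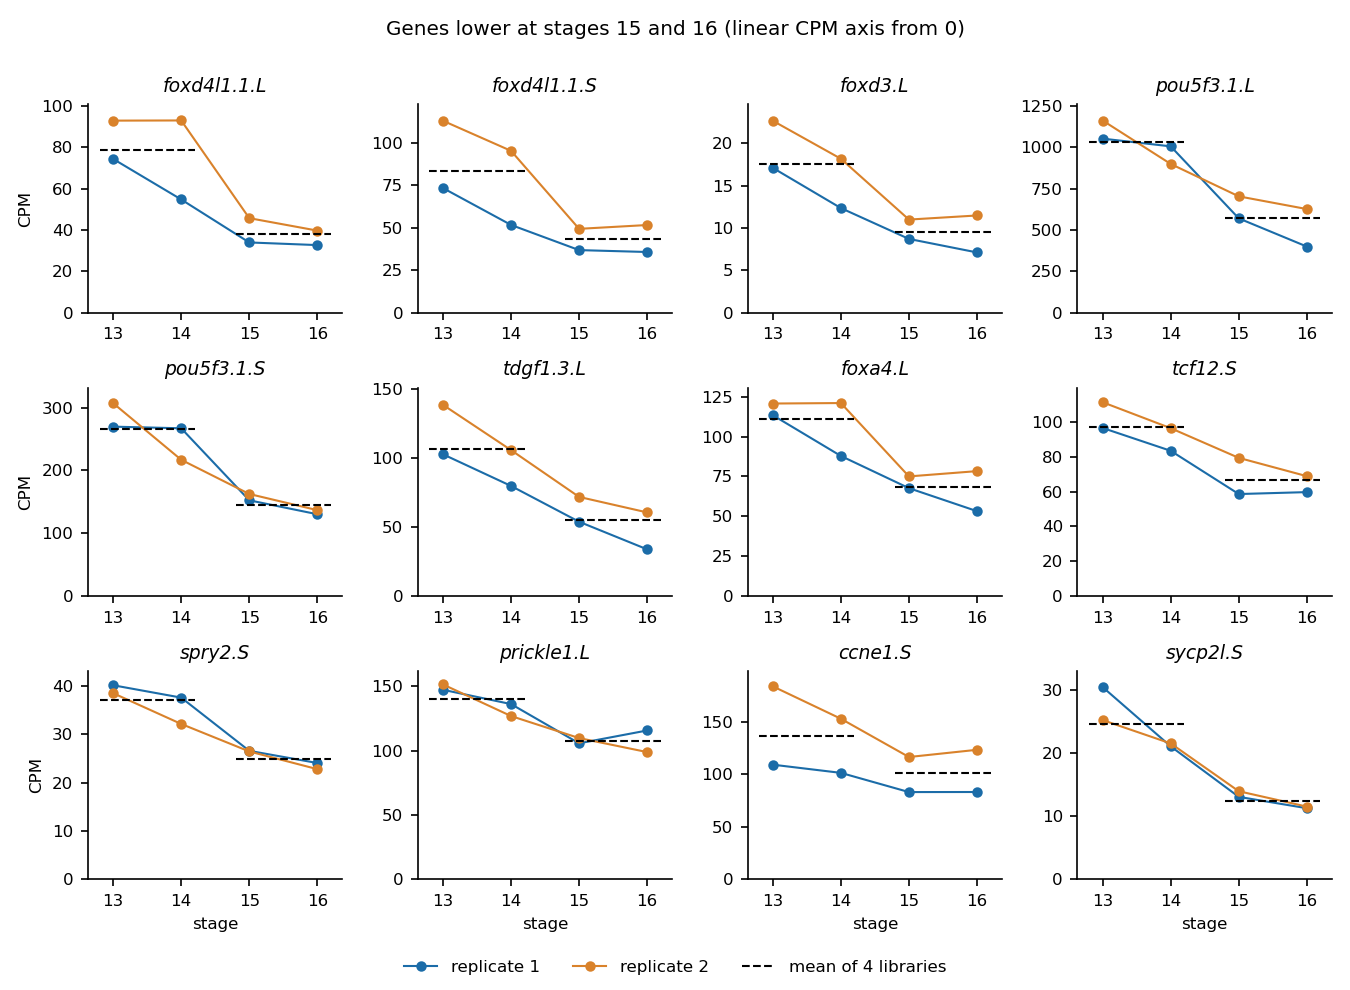
Level in CPM (linear axis from 0) of 12 genes that fell, by stage, with a line for each replicate number and a dashed line for the mean of the 4 libraries of each pair of stages. The mean of *foxd4l1.1.L* was 78.7 CPM at stages 13 and 14 and 38.0 CPM at stages 15 and 16, and that of *pou5f3.1.L* 1031 and 576 CPM.

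Over the whole lists, the neural plate list had 4 of 70 tested members higher and 4 lower (21 and 6 with a coefficient per stage), with a median log2 fold change of 0.30 against 0.0023 over all tested genes. The anterior neural and eye field list had 2 higher and 2 lower of 60 (15 and 5) and a median of 0.75. The midbrain and hindbrain list had 2 higher and 1 lower of 52 (11 and 4), and the neuronal differentiation list 2 higher and 1 lower of 82 (12 and 2). In the neural plate list, the members that fell included both *foxd4l1.1* copies and the geminin gene *gmnn.L*, and those that rose were both *zic5* copies, *sox21.L* and *irx3.L*. *insm2.L*, a zinc-finger gene of the neuronal list, fell from 11.1 ± 3.79 to 7.14 ± 1.96 CPM (-0.63 ± 0.12, adjusted p = 0.0442). The neural crest list had 1 higher and 2 lower of 65 (6 and 3) and the neural plate border and placode list 0 higher and 0 lower of 44 (6 and 0). In the latter, 15 higher and 2 lower had an unadjusted p under 0.05 (8 and 1 called by DESeq2). Over all tested models 11.6% were higher and 12% lower at that unadjusted threshold (4.9% and 5.6% called by DESeq2).

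Several eye field and forebrain genes had large positive fold changes without passing the test. The retinal homeobox gene *rax.L* was at 20.4, 22.1, 72.8 and 65.0 CPM in replicate 1 and 15.3, 108, 116 and 175 CPM in replicate 2. Stage 14 replicate 2 was already at the level of the later stages, and the gene was not called (1.46 ± 0.56, adjusted p = 0.184). *rax.S* was at 23.6 ± 28.6 against 44.8 ± 31.7 CPM (0.96 ± 0.54, adjusted p = 0.346), with the same library apart from the other 3. *pax6.L*, a homeobox gene of eye and neural tube, was at 33.4, 55.2, 108 and 87.7 CPM in replicate 1 and 23.0, 85.2, 103 and 125 CPM in replicate 2. It did not pass the test (adjusted p = 0.171 and 0.0378 with a coefficient per stage). The S copy *pax6.S* was at 22.9 ± 16.6 against 57.4 ± 11.6 CPM (1.33 ± 0.55, adjusted p = 0.209), and with a coefficient per stage its adjusted p was 0.00737. The LIM-homeobox gene *lhx2.L*, chosen after its values were seen, was at 4.83, 11.3, 37.7 and 45.7 CPM in replicate 1 and 2.85, 9.04, 18.5 and 31.6 CPM in replicate 2 (2.22 ± 0.43, adjusted p = 0.0591), with an adjusted p of 0.000329 with a coefficient per stage. The pan-neural genes *sox2.L* and *sox3.S* did not pass. *sox2.L* (gene45195) was at 218 ± 53.3 against 235 ± 32.4 CPM (0.12 ± 0.12, adjusted p = 0.601). A further model of that name, gene41682, was at 34.6 ± 8.23 against 32.8 ± 4.96 CPM (-0.07 ± 0.11, adjusted p = 0.742). *sox3.S* was at 477 ± 117 against 375 ± 108 CPM (-0.36 ± 0.09, adjusted p = 0.0682). Nor did the head gene *otx2* pass. Its L copy was at 276 ± 113 against 221 ± 22.6 CPM (-0.25 ± 0.19, adjusted p = 0.482) and its S copy at 194 ± 126 against 123 ± 50.9 CPM (-0.55 ± 0.20, adjusted p = 0.153 and 0.0366 with a coefficient per stage).

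Among the *hox* genes, which mark position along the trunk, 44 of 48 tested had a positive fold change, beside 50.4% of all tested models. *hoxa9.S* was the called member (1 of 48, and 15 of 48 with a coefficient per stage, none lower in either). It was at 2.67, 3.26, 4.35 and 6.68 CPM in replicate 1 and 1.18, 1.20, 2.83 and 3.22 CPM in replicate 2 (1.10 ± 0.19, adjusted p = 0.0404), so that the pairs of stages overlapped and the rise stands within each replicate number. *hoxa9.L* was at 6.99 ± 3.64 against 10.1 ± 4.10 CPM (0.59 ± 0.29, adjusted p = 0.253). *hoxb9.S*, a spinal cord gene, was at 15.9, 25.4, 32.2 and 58.2 CPM in replicate 1 and 6.30, 13.3, 17.8 and 23.6 CPM in replicate 2 and did not pass (1.10 ± 0.30, adjusted p = 0.0897 and 0.00199 with a coefficient per stage). The list summed to 231 and 95.7 CPM in replicates 1 and 2 of stage 13, whereas the anterior neural list summed to 1228 and 2027 CPM. Replicate 1 was thus the higher for posterior and the lower for anterior neural transcripts, and the part of this difference in the results was not tested.

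In the notochord and organizer lists the forkhead gene *foxa4*, which acts in the organizer and its derivatives, fell. *foxa4.L* was at 113, 87.8, 67.6 and 53.2 CPM in replicate 1 and 121, 121, 75.0 and 78.3 CPM in replicate 2 (-0.70 ± 0.10, adjusted p = 0.0320). *foxa4.S* was at 65.2, 46.4, 34.0 and 26.8 CPM in replicate 1 and 73.2, 65.8, 41.4 and 44.5 CPM in replicate 2 (-0.79 ± 0.12, adjusted p = 0.0348). Neither copy had a later library as high as an earlier one. The related gene *foxa1.S*, which is also an endoderm marker, rose from 16.5 ± 3.30 to 27.1 ± 2.47 CPM (0.71 ± 0.14, adjusted p = 0.0457). Its homeolog *foxa1.L* was at 12.5 ± 4.16 against 22.0 ± 8.14 CPM (0.79 ± 0.26, adjusted p = 0.122 and 0.0339 with a coefficient per stage). *b3gnt5.S*, which encodes a glycolipid glycosyltransferase, rose from 4.23 ± 0.827 to 8.05 ± 1.24 CPM (0.93 ± 0.17, adjusted p = 0.0430). The notochord list had 2 higher and 2 lower of 60 (18 and 6) with a median of 0.28, and the organizer list 0 higher and 2 lower of 44 (2 and 5) with a median of 0.02.

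The other notochord anchor genes did not pass the pooled test, and 3 of those given here passed with a coefficient per stage. *t.S* was at 161 ± 22.9 against 108 ± 15.5 CPM (-0.58 ± 0.12, adjusted p = 0.0556), and passed with a coefficient per stage (adjusted p = 0.0120). *t.L* was at 51.1 ± 12.4 against 33.4 ± 9.85 CPM (-0.60 ± 0.25, adjusted p = 0.198). The notochord homeobox gene *not.L* was at 46.7 ± 5.19 against 33.7 ± 5.31 CPM (-0.47 ± 0.12, adjusted p = 0.0667 and 0.0185 with a coefficient per stage) and *not.S* at 133 ± 11.7 against 109.7 ± 9.66 CPM (-0.27 ± 0.08, adjusted p = 0.0869). *chrd.L* stood at 502 ± 136 against 493 ± 71.5 CPM (0.01 ± 0.16, adjusted p = 0.985). *shh.L*, which encodes the Sonic hedgehog ligand of notochord and floor plate, was at 17.5 ± 4.63 against 27.1 ± 6.96 CPM (0.62 ± 0.24, adjusted p = 0.170). *shh.S* was at 38.3 ± 8.35 against 41.4 ± 5.64 CPM (0.12 ± 0.17, adjusted p = 0.728). *col2a1.L*, a fibrillar collagen gene of the notochord sheath, was at 35.9, 12.5, 28.7 and 109 CPM in replicate 1 and 5.73, 23.4, 29.5 and 58.3 CPM in replicate 2, so that stage 16 was high in both replicates and stage 15 was not (1.54 ± 0.65, adjusted p = 0.219). *col2a1.S* was at 2.60 ± 1.77 against 16.7 ± 18.4 CPM (2.53 ± 0.73, adjusted p = 0.113 and 0.0245 with a coefficient per stage). The wider extracellular matrix list had 0 higher and 1 lower of 103, against 28 and 3 with a coefficient per stage, with a median of 0.37.

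Of the sarcomere genes, 1 passed the test. *klhl40.L*, which encodes a sarcomere-stabilising Kelch protein, was at 1.40, 1.36, 1.97 and 4.09 CPM in replicate 1 and 1.28, 1.23, 2.70 and 4.11 CPM in replicate 2 (1.28 ± 0.25, adjusted p = 0.0456). It was the 1 called gene of 73 in the sarcomere list (1 higher, 0 lower, and 5 and 1 with a coefficient per stage). That is near the share called over all tested models, 1.34% (8.35% with a coefficient per stage). The list's median was 0.53, and 60 members had a positive fold change. The cardiac and early skeletal actin gene *actc1.L* was at 77.2, 24.3, 37.5 and 124 CPM in replicate 1 and 24.8, 43.4, 65.5 and 111 CPM in replicate 2, with stage 13 replicate 1 above stage 15 of both replicates (1.02 ± 0.54, adjusted p = 0.317). *actc1.S* was at 80.9 ± 30.8 against 134 ± 55.4 CPM (0.70 ± 0.42, adjusted p = 0.367). *myod1.S*, the myogenic regulator, was at 57.8 ± 21.8 against 59.7 ± 25.5 CPM (0.02 ± 0.29, adjusted p = 0.981). *cdh15.L*, which encodes the muscle cadherin, was at 0.508, 0.660, 1.70 and 1.74 CPM in replicate 1 and 2.27, 2.17, 3.84 and 4.82 CPM in replicate 2, higher in replicate 2 throughout and rising within each number (1.20 ± 0.20, adjusted p = 0.0404). Both copies of *tcf12*, which encodes an E-protein partner of myogenic and neurogenic bHLH factors, fell. *tcf12.S* went from 96.9 ± 11.4 to 66.6 ± 9.66 CPM (-0.55 ± 0.08, adjusted p = 0.0320) and *tcf12.L* from 66.4 ± 6.84 to 47.5 ± 6.35 CPM (-0.49 ± 0.09, adjusted p = 0.0442). They were the 2 called of 45 in the myogenic factor list (1 and 3). The presomitic and segmentation list had 0 of 50 called in either direction (2 and 4 with a coefficient per stage), and 11 higher and 7 lower had an unadjusted p under 0.05 (5 and 5 called by DESeq2). The unadjusted shares over all tested models were 11.6% and 12% (4.9% and 5.6% by DESeq2).

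**Figure D3:**
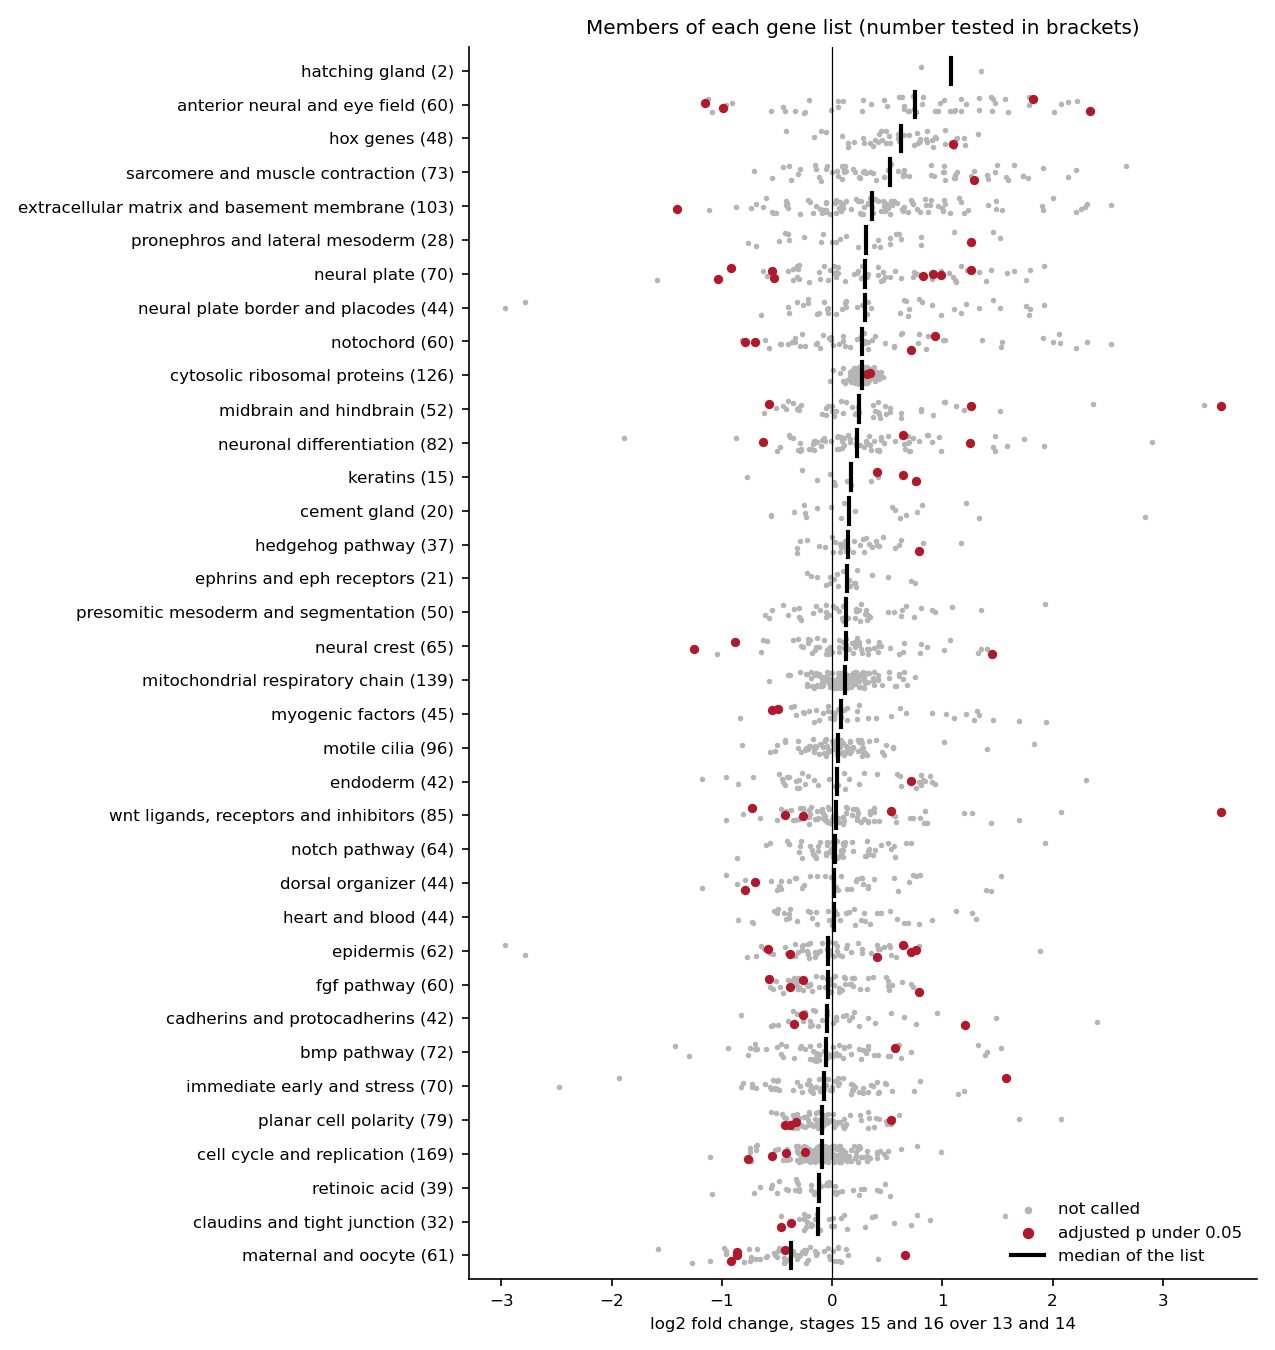
Log2 fold change of each tested member of 36 gene lists (grey points, red where the adjusted p is under 0.05) with the median of each list as a black bar, ordered by that median. In the cytosolic ribosomal protein list, 125 of 126 members lie above 0, and the maternal list has the lowest median, -0.37.

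In each signalling list few genes or none were called, beside 1.34% of all tested models. In the FGF pathway, whose ligands act on posterior mesoderm and neural tissue, the feedback inhibitor gene *spry2.S* was at 40.1, 37.5, 26.6 and 24.04 CPM in replicate 1 and 38.5, 32.1, 26.4 and 22.8 CPM in replicate 2 (-0.57 ± 0.09, adjusted p = 0.0404). Every later library was below every earlier one, as for the next 2 genes. The ETS factor gene *etv1.S* fell from 325 ± 7.35 to 271 ± 13.8 CPM (-0.26 ± 0.05, adjusted p = 0.0457), and the phosphatase gene *dusp1.S* from 39.3 ± 3.14 to 30.2 ± 3.06 CPM (-0.38 ± 0.07, adjusted p = 0.0442). The receptor gene *fgfr3.L* rose from 4.47 ± 0.357 to 7.79 ± 1.61 CPM (0.79 ± 0.16, adjusted p = 0.0458). The list had 1 higher and 3 lower of 60 (4 and 10). In the Hedgehog list *gli3.L*, a zinc-finger transducer that acts mostly as a repressor, was at 40.8, 48.4, 91.7 and 77.1 CPM in replicate 1 and 39.9, 57.9, 69.2 and 84.3 CPM in replicate 2 (0.79 ± 0.13, adjusted p = 0.0430), the 1 called of 37 (6 and 1). In the BMP list *id4.S*, which encodes an inhibitor of bHLH factors, was the 1 called of 72 (3 and 2), from 25.8 ± 7.70 to 37.6 ± 5.51 CPM (0.57 ± 0.12, adjusted p = 0.0474). The list's median was -0.06, and over all tested models 1.34% were called. The Notch list had 0 of 64 called by edgeR (3 and 1 with a coefficient per stage), and 7 higher and 6 lower had an unadjusted p under 0.05 (1 and 2 called by DESeq2). The retinoic acid list had 0 of 39 (2 and 3), and 3 higher and 6 lower had an unadjusted p under 0.05 (1 and 2 called by DESeq2). Beside the unadjusted counts of these 2 lists, the shares over all tested models were 11.6% and 12% (4.9% and 5.6% by DESeq2).

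Planar cell polarity, the Wnt pathway branch that orients cells as tissues lengthen, had 1 higher and 3 lower of 79 (5 and 5) and a median of -0.09. *wnt11b.L*, which encodes a ligand of this branch, was at 130.1, 123, 92.0 and 93.4 CPM in replicate 1 and 102, 80.4, 70.7 and 67.2 CPM in replicate 2 (-0.43 ± 0.08, adjusted p = 0.0430), lower later within each number while the pairs of stages overlapped. *prickle1.L*, a core polarity gene, was at 147, 136, 106 and 116 CPM in replicate 1 and 151, 127, 109.7 and 98.8 CPM in replicate 2 (-0.39 ± 0.07, adjusted p = 0.0442) without overlap. *prickle1.S* was at 132 ± 10.1 against 104 ± 14.0 CPM (-0.35 ± 0.09, adjusted p = 0.0667). The Wnt co-receptor gene *ror2.L* fell from 306 ± 21.5 to 244 ± 12.4 CPM (-0.33 ± 0.07, adjusted p = 0.0457). *fzd3.L*, a Frizzled receptor gene of neural tissue, rose from 34.9 ± 5.86 to 50.4 ± 6.77 CPM (0.53 ± 0.11, adjusted p = 0.0457). The receptor gene *fzd7.L* was at 1021 ± 139.7 against 765 ± 60.3 CPM (-0.42 ± 0.09, adjusted p = 0.0584), and passed with a coefficient per stage (adjusted p = 0.00761). The core gene *vangl2* was at 297 ± 15.4 against 278 ± 18.9 CPM (-0.09 ± 0.05, adjusted p = 0.304) for L and 122 ± 16.6 against 116 ± 8.60 CPM (-0.07 ± 0.06, adjusted p = 0.562) for S. Elsewhere in the Wnt list, *notum.L*, which encodes a secreted Wnt-inactivating enzyme, fell from 12.8 ± 2.21 to 7.77 ± 1.37 CPM (-0.73 ± 0.15, adjusted p = 0.0457). *ctnnb1.S*, the beta-catenin gene, fell from 1755 ± 157 to 1462 ± 163 CPM (-0.27 ± 0.06, adjusted p = 0.0479). That list had 2 higher and 3 lower of 85 (8 and 6).

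Among epithelial genes, 3 keratin genes of simple epithelia rose. *krt18.L* was at 288, 286, 439 and 511 CPM in replicate 1 and 248, 281, 366 and 411 CPM in replicate 2 (0.64 ± 0.07, adjusted p = 0.0202). *krt8.L* was at 1222, 1379.5, 1588 and 1681 CPM in replicate 1 and 1125, 1123, 1626 and 1529 CPM in replicate 2 (0.41 ± 0.06, adjusted p = 0.0320). Neither overlapped between the pairs of stages, nor did *krt19*, from 21.6 ± 4.32 to 36.8 ± 6.78 CPM (0.76 ± 0.13, adjusted p = 0.0404). The keratin list had 3 higher and 0 lower of 15 (5 and 0), and the epidermal keratin gene *krt12.S* was at 557 ± 141 against 619 ± 66.5 CPM (0.17 ± 0.17, adjusted p = 0.584). The epidermis list as a whole had 4 higher and 2 lower of 62 (8 and 6) with a median of -0.03. Its lower members were 2 uroplakin genes, *upk1b* (-0.38 ± 0.07, adjusted p = 0.0442) and *upk1b.L* (-0.58 ± 0.11, adjusted p = 0.0442). Among junction genes, both copies of the tight junction gene *ocln* fell, with overlap between the pairs of stages. *ocln.L* went from 139 ± 14.3 to 102 ± 22.1 CPM (-0.47 ± 0.08, adjusted p = 0.0430) and *ocln.S* from 114 ± 19.3 to 88.6 ± 18.1 CPM (-0.37 ± 0.07, adjusted p = 0.0447). *cdh3.S*, which encodes the C-cadherin of the early embryo, was at 279, 245, 199 and 203 CPM in replicate 1 and 273, 243, 219 and 197 CPM in replicate 2 (-0.35 ± 0.07, adjusted p = 0.0446) and did not overlap. The claudin and tight junction list had 0 higher and 2 lower of 32 (3 and 4), and the cadherin list 1 higher and 2 lower of 42 (4 and 5).

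Several genes of pluripotent and maternal expression fell. *pou5f3.1.L*, a POU-domain gene related to mammalian Oct4 that holds embryonic cells uncommitted, was at 1054, 1007, 571 and 400.1 CPM in replicate 1 and 1163, 900.2, 704 and 627 CPM in replicate 2 (-0.86 ± 0.15, adjusted p = 0.0457). *pou5f3.1.S* was at 269.6, 267, 152 and 130.2 CPM in replicate 1 and 307, 217, 162 and 137 CPM in replicate 2 (-0.87 ± 0.11, adjusted p = 0.0320). In both, all later libraries were below all earlier ones. *tdgf1.3.L*, which encodes an EGF-CFC co-receptor of Nodal signalling, was at 103, 79.9, 53.9 and 33.9 CPM in replicate 1 and 139, 106, 71.9 and 60.7 CPM in replicate 2 (-0.97 ± 0.16, adjusted p = 0.0442), also without overlap. *sycp2l.S*, an oocyte gene of the synaptonemal complex family, fell from 24.6 ± 4.34 to 12.5 ± 1.28 CPM (-0.98 ± 0.14, adjusted p = 0.0320). *gdf9.S*, a growth factor gene of the oocyte, fell from 11.8 ± 2.55 to 6.27 ± 0.844 CPM (-0.91 ± 0.17, adjusted p = 0.0442). The maternal and oocyte list had 1 higher and 4 lower of 61 (1 and 17) and a median of -0.37, and 10 members had a positive fold change. The higher member was *trim36.L*, a ubiquitin ligase gene, at 17.3, 18.7, 26.0 and 30.8 CPM in replicate 1 and 15.8, 18.7, 26.9 and 28.0 CPM in replicate 2 (0.66 ± 0.10, adjusted p = 0.0320).

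Nearly all genes of the cytosolic ribosome had a small positive fold change. Of 126 cytosolic ribosomal protein genes, 125 had a positive fold change, with a median of 0.27 (0.26 with upper quartile scaling), while 2 passed the test (57 with a coefficient per stage, none lower). *rpl13.S* was at 152, 152, 193 and 188 CPM in replicate 1 and 130.2, 133, 152 and 184 CPM in replicate 2 (0.34 ± 0.07, adjusted p = 0.0442). *rpl7.L* was at 233, 221, 284 and 299 CPM in replicate 1 and 202, 217, 235 and 269 CPM in replicate 2 (0.31 ± 0.06, adjusted p = 0.0457). The list summed to 12344 to 14703 CPM at stages 13 and 14 and 13686 to 18560.5 CPM at stages 15 and 16. The cell cycle and replication list had 0 higher and 4 lower of 169 (7 and 25) and a median of -0.09. Its called members were the cyclin genes *ccne1.S*, from 137 ± 38.6 to 101 ± 21.4 CPM (-0.42 ± 0.07, adjusted p = 0.0404), and *ccnd2.L*, from 13.3 ± 6.05 to 7.60 ± 2.02 CPM (-0.76 ± 0.15, adjusted p = 0.0447), and 2 others. The replication licensing inhibitor gene *gmnn.L* fell from 44.7 ± 10.6 to 30.4 ± 2.93 CPM (-0.54 ± 0.11, adjusted p = 0.0457). The kinase gene *cdk4.L* fell from 289.9 ± 4.57 to 245 ± 9.40 CPM (-0.25 ± 0.05, adjusted p = 0.0477). The mitochondrial respiratory chain list had 0 of 139 called by edgeR (2 and 0 with a coefficient per stage), and 23 higher and 1 lower had an unadjusted p under 0.05 (3 and 0 called by DESeq2). Beside such counts, here and in the lists that follow, the unadjusted shares over all tested models were 11.6% and 12% (4.9% and 5.6% by DESeq2). In the immediate early and stress list *chac1.L*, a glutathione-degrading enzyme gene, was the 1 called of 70 (3 and 5 with a coefficient per stage), from 0.427 ± 0.264 to 1.28 ± 0.782 CPM (1.57 ± 0.29, adjusted p = 0.0430). The list's median was -0.07, and over all tested models 1.34% were called (8.35% with a coefficient per stage). Of 42 endoderm genes 1 was called, *foxa1.S* (3 and 1 with a coefficient per stage), and of 28 pronephros and lateral mesoderm genes 1, *irx3.L* (2 and 0 with a coefficient per stage), both higher. The heart and blood list had 0 of 44 called by edgeR (2 and 0 with a coefficient per stage), and 6 higher and 1 lower had an unadjusted p under 0.05 (1 and 0 called by DESeq2). The motile cilia list had 0 of 96 (2 and 0 with a coefficient per stage), and 8 higher and 1 lower had an unadjusted p under 0.05 (1 and 1 called by DESeq2). The cement gland list had 0 of 20 (1 and 3 with a coefficient per stage), and 5 higher and 3 lower had an unadjusted p under 0.05 (4 and 2 called by DESeq2). The hatching gland list had 0 of 2 (0 and 0 with a coefficient per stage), both higher at an unadjusted p under 0.05 and by DESeq2. The list of ephrins and their receptors had 0 of 21 (3 and 0 with a coefficient per stage), and 6 higher and 2 lower had an unadjusted p under 0.05 (3 and 0 called by DESeq2).

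The remaining genes of largest change among those with a mean of at least 5 CPM in the pair of stages where they were higher were of mixed function. Among the rises, *flvcr1.L*, which encodes a haem exporter, was at 2.19, 4.46, 10.9 and 10.6 CPM in replicate 1 and 1.34, 2.80, 5.43 and 8.83 CPM in replicate 2 (1.74 ± 0.28, adjusted p = 0.0404). *fry.L*, a gene of cell shape and polarity, was at 4.32, 4.70, 9.03 and 24.2 CPM in replicate 1 and 2.27, 3.38, 7.64 and 8.89 CPM in replicate 2 (1.72 ± 0.30, adjusted p = 0.0442), with stage 16 replicate 1 far above the rest. *zbtb16.L*, a zinc-finger repressor gene, rose from 4.32 ± 1.57 to 13.0 ± 5.49 CPM (1.55 ± 0.24, adjusted p = 0.0404). *deltaef1*, a zinc-finger homeobox repressor gene, rose from 4.30 ± 1.19 to 9.77 ± 2.37 CPM (1.19 ± 0.21, adjusted p = 0.0404). *lrrc4b.L* and *nsmf.S*, genes of synaptic adhesion and synapse-to-nucleus signalling, rose from 2.12 ± 0.759 to 6.16 ± 2.59 CPM (1.53 ± 0.26, adjusted p = 0.0404) and from 5.47 ± 2.33 to 15.3 ± 2.60 CPM (1.51 ± 0.21, adjusted p = 0.0320). *rassf10.S*, of the Ras-association family, rose from 2.98 ± 0.744 to 6.17 ± 1.09 CPM (1.06 ± 0.20, adjusted p = 0.0442). Among the falls, *snx2.L*, a sorting nexin gene, was at 7.94, 5.51, 2.92 and 2.11 CPM in replicate 1 and 9.12, 4.06, 3.19 and 2.38 CPM in replicate 2 (-1.33 ± 0.26, adjusted p = 0.0457). *slc16a3.L*, which encodes a lactate transporter, was the most abundant of the 12 and was at 854, 667, 370.4 and 281 CPM in replicate 1 and 1009, 746, 538 and 531 CPM in replicate 2 (-0.97 ± 0.16, adjusted p = 0.0447). *brdt.L* (-1.14 ± 0.22, adjusted p = 0.0447), a testis bromodomain gene in mammals, *extl2.L* (-1.12 ± 0.18, adjusted p = 0.0404), a glycosyltransferase gene, and *slc26a6.L* (-1.04 ± 0.20, adjusted p = 0.0442), an anion exchanger gene, fell as well. Lack of overlap between the libraries of the earlier and later stages was a condition for choosing these 12.

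Of the 355 called models, 79 carry a LOC name, and 33 of these have a symbol in RefSeq. The 6 named here were picked out after their values were seen. *wnt4.S*, a Wnt ligand gene, was at 0.318, 0.660, 1.49 and 4.67 CPM in replicate 1 and 0.256, 0.258, 1.01 and 1.87 CPM in replicate 2 (2.58 ± 0.43, adjusted p = 0.0404). *foxe3.S*, a lens forkhead gene, was at 0.349, 0.311, 1.88 and 0.793 CPM in replicate 1 and 0.256, 0.658, 2.57 and 2.44 CPM in replicate 2 (2.24 ± 0.35, adjusted p = 0.0401), without overlap in either gene. The Eph receptor gene *ephb2.S* rose from 17.6 ± 1.59 to 32.8 ± 6.42 CPM (0.90 ± 0.13, adjusted p = 0.0330). *dchs1.S*, which encodes a large cadherin of tissue polarity, rose from 13.8 ± 8.17 to 23.0 ± 7.07 CPM (0.87 ± 0.17, adjusted p = 0.0457), with overlap between the pairs of stages. The Iroquois gene *irx2.S* fell from 29.9 ± 8.04 to 19.6 ± 3.51 CPM (-0.60 ± 0.12, adjusted p = 0.0449), against the direction of *irx3.L*. The second sycp2l copy, *sycp2l.L*, fell from 6.16 ± 1.45 to 3.12 ± 0.581 CPM (-0.98 ± 0.20, adjusted p = 0.0457).

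The L and S copies of a gene could be compared for 4514 pairs. At least 1 copy was called in 152 of them. Genes with a copy named only by a LOC number, such as *sycp2l*, or with several models of one symbol, such as *foxd3*, are not among these pairs. Both copies were called in 12 pairs, always in the same direction: *zic5* rose, and *foxd4l1.1*, *foxa4*, *pou5f3.1*, *tcf12*, *ocln*, *anp32c*, *cuedc2*, *gpd2*, *herc4*, *sp5l* and *tp53bp1* fell. Among those not yet described, *sp5l*, which encodes a zinc-finger target of Wnt signalling, fell in L (-0.48 ± 0.08, adjusted p = 0.0404) and S (-0.42 ± 0.07, adjusted p = 0.0401). *cuedc2* fell as well (-0.84 ± 0.15, adjusted p = 0.0408 in L and -1.09 ± 0.18, adjusted p = 0.0404 in S). So did *gpd2*, which encodes a mitochondrial glycerol-phosphate dehydrogenase (-1.32 ± 0.25, adjusted p = 0.0442 and -1.15 ± 0.23, adjusted p = 0.0457), and the ubiquitin ligase gene *herc4* (-0.80 ± 0.17, adjusted p = 0.0489 and -0.93 ± 0.17, adjusted p = 0.0430). The abundant histone chaperone family gene *anp32c* fell too (-0.39 ± 0.08, adjusted p = 0.0465 and -0.46 ± 0.08, adjusted p = 0.0442). For *tp53bp1*, a DNA damage response gene, the L copy had -1.25 ± 0.18, adjusted p = 0.0404 and the S copy -0.50 ± 0.08, adjusted p = 0.0404. In the other 140 pairs 1 copy was called, and its partner had the same sign in 125. The share of same-sign pairs among all 4514 was not counted. Reads of near-identical copies are divided by estimation, so the signs within a pair may not be independent. The L to S ratio changed for 15 pairs (0.332%), 8 toward L and 7 toward S (limma on log2 ratios with the replicate block). In *plscr1*, a phospholipid scramblase gene, the L copy fell from 111 ± 18.1 to 65.4 ± 8.93 CPM (-0.76 ± 0.12, adjusted p = 0.0404). The S copy was at 349.7 ± 79.1 against 296 ± 73.7 CPM (-0.25 ± 0.08, adjusted p = 0.115), and the log2 L over S ratio changed by -0.51 ± 0.06 (adjusted p = 0.0317). In *tuba4a*, an alpha-tubulin gene, *tuba4a.L* rose from 9.72 ± 0.584 to 16.3 ± 2.31 CPM (0.75 ± 0.11, adjusted p = 0.0348). *tuba4a.S* was at 10.5, 14.1, 8.67 and 11.4 CPM in replicate 1 and 37.8, 42.6, 28.8 and 43.2 CPM in replicate 2, higher in replicate 2 at every stage (ratio change 0.98 ± 0.12). In *ncald*, a neuronal calcium sensor gene, *ncald.S* fell from 38.8 ± 0.897 to 29.3 ± 2.04 CPM (-0.41 ± 0.07, adjusted p = 0.0437). *ncald.L* was at 15.6 ± 2.16 against 20.2 ± 1.47 CPM (0.37 ± 0.10, adjusted p = 0.0704) (ratio change 0.78 ± 0.10). In *col4a5*, a basement membrane collagen gene, *col4a5.S* fell from 1.29 ± 0.741 to 0.494 ± 0.280 CPM (-1.40 ± 0.28, adjusted p = 0.0450). *col4a5.L* was at 4.90 ± 0.916 against 10.6 ± 7.13 CPM (1.02 ± 0.30, adjusted p = 0.100 and 0.0291 with a coefficient per stage) (ratio change 2.30 ± 0.30). Without the block 0 pairs were called. Leaving out stage 14 replicate 2 gave 121, leaving out stage 15 replicate 2 gave 3, and leaving out each of the other 6 libraries in turn gave 0.

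**Figure D4:**
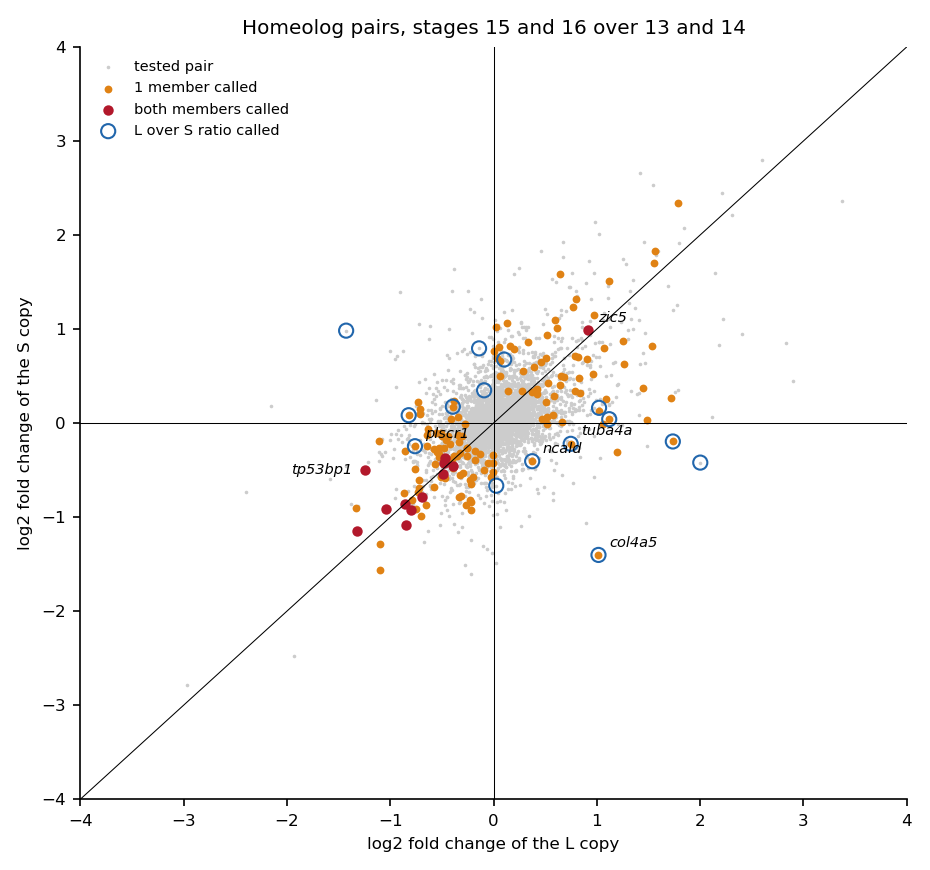
Log2 fold change of the S copy against that of the L copy for 4514 homeolog pairs, with the line of equality. Orange points have 1 called member, red points have both called, and blue rings mark the 15 pairs whose L to S ratio changed. All 12 red points have the same sign on both axes, for example *foxd4l1.1* at -1.04 and -0.92.

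The steps between neighbouring stages, with 2 libraries each, gave no called gene by edgeR: 0 (0%) for stage 14 over 13, 0 for 15 over 14 and 0 for 16 over 15. Of the 26493 models tested by edgeR, 2551, 1345 and 1554 had an unadjusted p under 0.05. Chance alone gives a fraction of about 0.05 at this threshold. The count of 2551, for stage 14 over 13, is well above that fraction, while 1345 and 1554 lie near it. That step falls within the earlier pair of stages. These counts are a description only. DESeq2 called 112, 14 and 15. For the 138 genes that rose, the median log2 change was 0.24, 0.61 and 0.24 at these steps, and for the 217 that fell it was -0.25, -0.41 and -0.16. The largest median lies at the step that separates the compared pairs, as the choice of genes by that difference favours, so these medians are a description only. *pou5f3.1.S* shows such a course, with stage means of 291, 245, 159 and 135 CPM. *wnt1.L* had stage means of 0.177, 0.751, 2.74 and 6.91 CPM and stood at 6.19 and 9.87 CPM at stages 17 and 18.

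The flanking stages 12, 12.5, 17 and 18, which took no part in the choice of genes, show the called genes over a longer course. Of the 138 that rose, 128 had their highest stage mean at stage 17 or 18 and 125 their lowest at stage 12 or 12.5. Of the 217 that fell, 209 were highest at stage 12 or 12.5 and 209 lowest at stage 17 or 18. The shares of all tested models with such courses were not counted, so these numbers are a description only. *foxd4l1.1.L* had stage means of 95.2, 89.6, 84.4 and 74.9 CPM at stages 12, 12.5, 13 and 14. It then stood at 40.4, 36.6, 25.2 and 22.2 CPM at stages 15 to 18. The log2 change from stages 13 and 14 to 15 and 16 was set against the change from 12 and 12.5 to 13 and 14, and against the change to 17 and 18, over 30109 models. These intervals share the libraries of stages 13 and 14, or of 15 and 16. The edgeR test of the difference called 0 against the preceding interval and 0 against the following one, with smallest adjusted p of 0.995 and 0.777. Of the 30109 models, 1074 and 1641 had an unadjusted p under 0.05. Chance alone gives a fraction of about 0.05, so these counts are not a sign of differences. DESeq2 called 1 and 16. In simulated counts these 2 tests recovered 15% and 21% of 2-fold differences and 83% and 81% of 4-fold ones, with 11 false calls each among 29357 models. The simulated libraries were drawn independently, with the same change at all of stages 15 to 18. These shares thus need not hold for the real libraries, and the 0 calls do not show that large differences are absent.

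**Figure D5:**
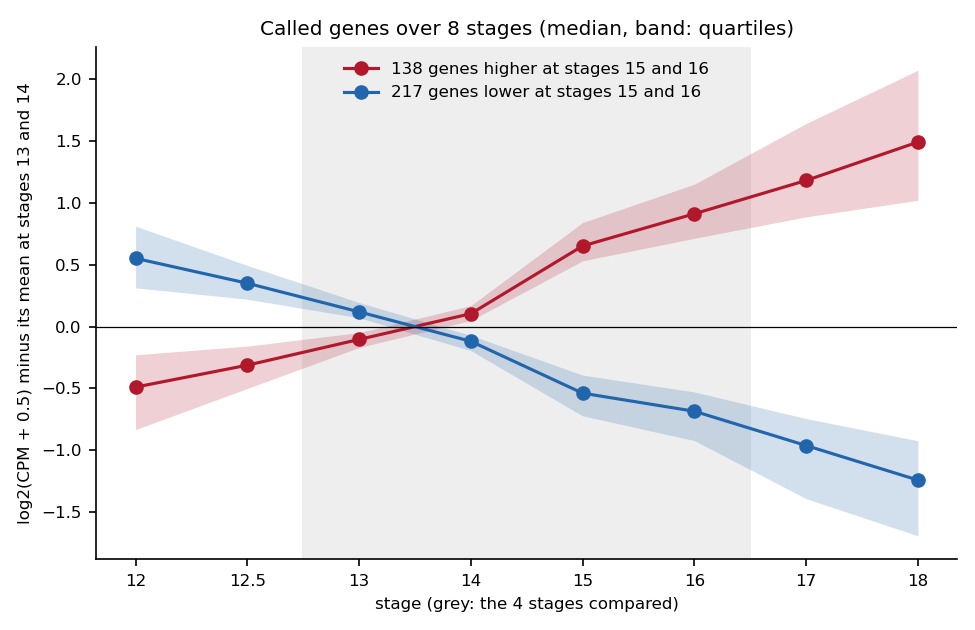
Median over genes of log2(CPM + 0.5) at each of 8 stages, relative to its mean at stages 13 and 14, for the 138 genes that rose and the 217 that fell (bands from lower to upper quartile, grey for the stages compared). The median of the rises went from -0.49 at stage 12 to 1.49 at stage 18, and that of the falls from 0.55 to -1.24.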

How the data were processed

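The deposited count table holds whole-number counts for 31694 gene models in 24 libraries, and the submitters' processing notes name Trim Galore, kallisto and DESeq2. Their versions, the genome build, the annotation and the handling of strand were not given in the sources used here. A second deposited table pairs gene IDs with names and holds the authors' regularised log2 values per group and their adjusted p-values. Only its names were used here. Counts were used as deposited.

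The 8 libraries were fitted in edgeR 4.0.16 (R 4.3.3) with TMM scaling and robust quasi-likelihood, pair of stages plus replicate number. The filterByExpr step, with a minimum count of 10 and a minimum total of 15, left 26493 models. The labels do not say that a replicate number marks a shared clutch or day. The numbers were taken to pair the samples because same-numbered libraries deviated together, with correlations of 0.521 to 0.597 over 6 pairs of stages (median 0.541). Of 28 pairs of libraries, 0 held identical counts. Homeolog ratios were log2((L + 0.5)/(S + 0.5)) of counts, tested in limma 3.58.1. The alternatives were DESeq2 1.42.0, other scalings, filters and models, and leaving out each library. In simulated counts, the edgeR fit of stages 15 and 16 over 13 and 14 recovered 86% of 2-fold and 96% of 4-fold changes, with 18 false calls among 25936 models. Here and in the simulation of the interval differences, the changed genes left out models of the lowest levels. Both stages of a pair were given the same mean level and counts were drawn independently, so the shares recovered need not hold for the real libraries. RefSeq (assembly Xenopus_laevis_v10.1, names only) matched 5681 of 6581 tested LOC models and gave 2080 a symbol.

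The members and gene lists were chosen with earlier results of these data known. The named genes are the 12 largest rises and 12 largest falls that passed with a symbol, a mean of at least 5 CPM in the higher pair of stages and no overlap of libraries. Added to these are up to 4 called members of smallest p in each list, the 3 homeolog pairs of smallest p and a set of marker genes in L and S. Chosen after their values were seen were *lhx2.L*, *upk1b.L*, *zic5*, the LOC models, further copies of named genes and the pairs with both copies called. PCR reads without molecular identifiers are not independent molecules. A gene that the rule takes is not reported here.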

Additional observations from a re-analysis of the deposited data

Results flagged for a closer look

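In 16 of 342 groups of 4 libraries the highest or the lowest library stood apart from the other 3 by Dixon's criterion at the 95% level, which chance does in about 1 in 20 groups. Stage 14 replicate 2 was the high library of stages 13 and 14 for the eye field genes *rax.L* (107.7 CPM) and *rax.S* (66.5 CPM) and for *fgfr3.L* (5.01 CPM), and the low one for *plscr1.L* (84.0 CPM). Stage 14 replicate 1 was high for *nsmf.S* (8.97 CPM) and *wnt4.S* (LOC108697659, 0.66 CPM) and low for *prickle1.S* (117 CPM) and *sp5l.L* (202 CPM). Stage 13 replicate 2 was low for *foxa1.L* (6.30 CPM) and high for *herc4.L* (32.4 CPM).

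At stages 15 and 16, stage 16 replicate 1 was high for *fry.L* (24.2 CPM), *lrrc4b.L* (10.04 CPM) and *col4a5.L* (21.1 CPM). Stage 16 replicate 2 was high for *rassf10.S* (7.81 CPM) and stage 15 replicate 2 was low for *foxa1.S* (23.4 CPM). The summed level of the cell cycle and replication genes was highest in stage 15 replicate 1, at 15406 CPM.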

How the results depend on the processing

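Every call for stages 15 and 16 over 13 and 14 depended on the replicate block: with no replicate block edgeR called 0 higher, 0 lower and 0 in either direction, and the same 0 resulted against a fold of 1.5. DESeq2 with the block called 1121 higher and 1283 lower (2404), a coefficient per stage 1108 and 1104 (2212), and L and S counts summed 17 and 16 (33). Other scalings, other filters, no robust step and all 24 libraries gave 334 to 496 beside 355. Leaving out each library gave 0 to 767 higher, 0 to 1054 lower and 0 to 1821 in either direction. Of the 94 named genes called, 94 were still called with RLE scaling, no filter, DESeq2, a coefficient per stage or without stage 14 replicate 2, 42 with all 24 libraries and 21 with L and S summed. The cause was not tested. The steps between stages had 0 calls. DESeq2 called 79 higher and 33 lower (112) for stage 14 over 13, 7 and 7 (14) for 15 over 14, and 14 and 1 (15) for 16 over 15, and no filter gave 3 higher for the first. Leaving out each library gave 0 to 5 higher, 0 to 4 lower and 0 to 9 in either direction for the first step, 0 to 4, 0 and 0 to 4 for the second, and 0 to 3, 0 to 1 and 0 to 4 for the third. Against the preceding interval DESeq2 called 1 lower, and against the following one 7 higher and 9 lower (16), and leaving out each library gave 0 to 1 lower for each. For the L to S ratio, no replicate block gave 0, 0 and 0, the stricter filter 23 toward L and 25 toward S (48), and leaving out each library 0 to 58, 0 to 63 and 0 to 121. Among genes not called, the log2 fold change of chrd.L (gene41888), 0.01, went to -0.026 with no replicate block, -0.00459 with upper quartile scaling and -0.016 with all 24 libraries, and -0.13 to 0.15 without single libraries. In the same way *myod1.S* ran from -0.15 to 0.30 and *shh.S* from -0.040 to 0.26. With L and S summed, the gene gave 0.16 for *tuba4a*, 0.76 for *col4a5* and -0.13 for *ncald*, opposite in sign to *tuba4a.S*, *col4a5.S* and *ncald.L*, because the sum holds both copies. With 4 libraries a pair of stages and 2 a stage, a gene that missed the threshold is not shown to be unchanged.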
